A study of Populus trichocarpa with 12 samples.

Results

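MYB002, MYB021, MYB003 and MYB020 are the transcription factors of black cottonwood (Populus trichocarpa) that correspond to Arabidopsis MYB46 and MYB83, the master switches of the secondary cell wall. They were taken by identifier, as Potri.001G258700 (MYB002), Potri.009G053900 (MYB021), Potri.001G267300 (MYB003) and Potri.009G061500 (MYB020), and all 4 were found among the 41335 loci measured. RNA was sequenced from developing xylem, where new wood cells build their walls, of 12 greenhouse trees of the Nisqually-1 background. Of these, 9 were transgenic trees that overexpressed miR397a from the CaMV 35S promoter, a promoter active in most plant tissues, and each came from a line of its own (1, 3, 5, 6, 9, 10, 17, 26 and 30). The other 3 were wild-type trees. Ages were not given in the labels. The design text calls the transgenic trees biological replicates.

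In Arabidopsis, NAC proteins of the SND1, NST and VND type switch on MYB46 and MYB83 in fibres and vessels, and these R2R3-MYB proteins in turn bind the promoters of genes for cellulose, xylan and lignin synthesis. The poplar proteins turn on the same wall programmes when overexpressed in Arabidopsis. In poplar, MYB002 and MYB021 are the closest relatives of each other, as are MYB003 and MYB020. The known targets of miR397a are mRNAs of laccases, the wall enzymes that oxidise lignin precursors, which act downstream of this network.

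Per library, 8015226 to 34112839 reads were counted over loci in the lines and 12580140 to 23611857 in wild type, with 1 transcript model kept per locus. A stretch of 9 neighbouring loci on chromosome 5 took 1.14% to 18.7% of these reads in the lines and 2.80% to 18.9% in wild type. No source used here names the other identifiers, so xylem markers and the miR397a precursor could not be looked up. Transcript lengths were not used either, so levels are compared between trees and never between genes. As elsewhere in whole-tissue RNA, fewer cells that use a gene and less RNA per cell cannot be told apart.

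The identifiers place MYB002 and MYB003 on chromosome 1, with 85 loci between them, and MYB021 and MYB020 on chromosome 9, with 75 loci between them. Each pair of close relatives therefore has 1 member on each chromosome. MYB002 was listed with 2 transcript models whose counts were identical in every library, and the other MYB genes had 1 model each. The counts of each of the 4 differed from those of every other locus in the table. All 4 passed the filter on low counts.

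MYB021, which in cottonwood is known to be switched on directly by wood NAC factors of the SND1 type, was read 429 to 1409 times per line. Its level in the lines, in counts-per-million (CPM, scaled by TMM), was 42.5 at the lowest (line 30), 48.9 at the median and 52.9 at the highest (line 3). The wild-type trees 1, 2 and 3 stood at 47.4, 41.9 and 45.3 CPM. Lines and wild type overlapped. Above all wild-type trees lay 6 lines, while 3 lay among them and 0 lay below. The mean of the lines was 47.9 ± 3.51 CPM (SD, n = 9), against 44.9 ± 2.81 CPM (SD, n = 3) for wild type.

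MYB002, the close relative of MYB021 on chromosome 1, was read 91 to 307 times per line. The lowest line, 6, had 8.16 CPM, the median was 9.74 CPM and the highest line, 26, had 11.3 CPM. Wild-type trees 1, 2 and 3 held 9.40, 9.69 and 8.78 CPM. All 3 wild-type values lay inside the range of the lines, with 6 lines above them and 1 below. The lines averaged 9.88 ± 0.97 CPM (SD, n = 9), and wild type averaged 9.29 ± 0.47 CPM (SD, n = 3).

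MYB003, which like MYB020 activates lignin, cellulose and xylan genes when overexpressed in Arabidopsis, showed a wider range. Line 10 was lowest at 4.69 CPM, the median was 6.22 CPM and line 1 was highest at 9.18 CPM, a 1.96-fold span. The wild-type trees spanned 1.57-fold, with 8.60, 7.55 and 5.48 CPM in trees 1, 2 and 3. The low lines (10, 6 and 30) lay below every wild-type tree, and 2 lines, 1 and 5, lay above them. The lines averaged 6.69 ± 1.67 CPM (SD, n = 9) against 7.21 ± 1.59 CPM (SD, n = 3) for the wild-type trees.

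MYB020, the close relative of MYB003 on chromosome 9, had the fewest reads, between 19 (line 5) and 77 (line 1) per transgenic tree. The lowest line, 6, stood at 1.91 CPM, the median at 2.69 CPM and the highest line, 9, at 3.65 CPM. Wild-type trees 1, 2 and 3 had 3.28, 3.48 and 2.52 CPM. Of the lines, 4 lay below all wild-type trees and 1 above them. At this depth single values of MYB020 are loose: the 19 reads of line 5 gave 2.17 CPM with a 95% exact Poisson interval of 1.31 to 3.39, which covers counting error only. Means were 2.81 ± 0.65 CPM for the lines (SD, n = 9) and 3.09 ± 0.51 CPM for wild type (SD, n = 3).

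**Figure D1:**
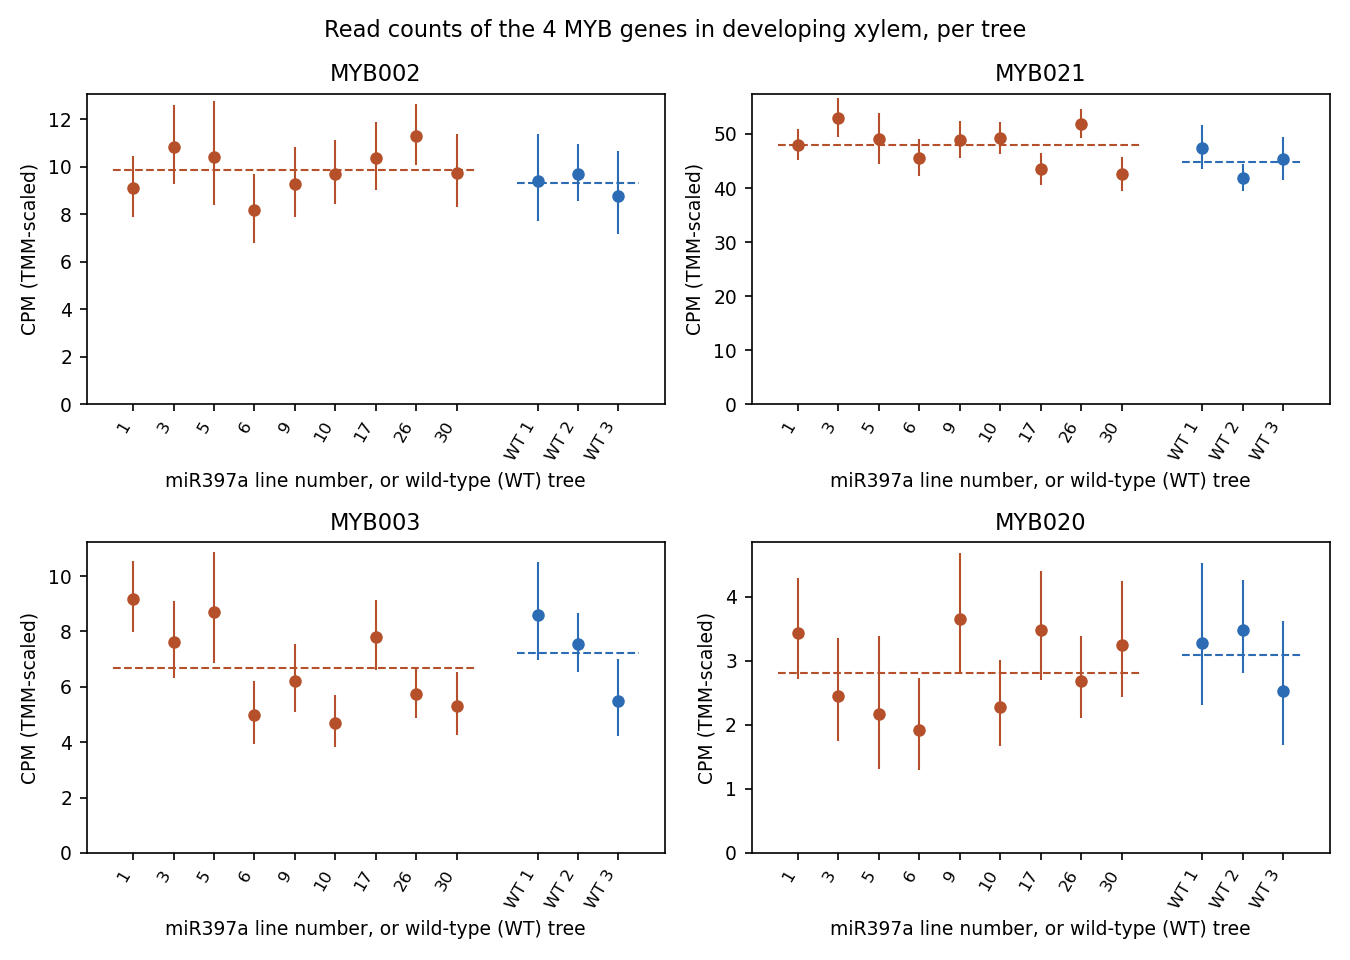
TMM-scaled CPM of each MYB gene in the 9 miR397a lines (red, by line number) and the 3 wild-type trees (blue). Bars are 95% exact Poisson intervals for counting error and dashed lines are group means. The groups overlap for all 4 genes, and MYB003 spans 4.69 CPM (line 10) to 9.18 CPM (line 1).

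Whether overexpression of miR397a was accompanied by a change in these regulators was tested in a fit over all loci. None of the 4 MYB genes passed. MYB002 and MYB021 were estimated 1.06-fold and 1.07-fold as high in the lines as in wild type, and MYB003 and MYB020 0.921-fold and 0.907-fold. Of 26298 loci tested, 24 were called at an adjusted p below 0.05 (0.0913%), 3 of them higher in the lines (0.0114%) and 21 lower (0.0799%), and 0 of the 4 MYB genes were among them (edgeR quasi-likelihood test with Benjamini-Hochberg adjustment). At an unadjusted p below 0.05, where 11.0% of all tested loci stood in edgeR, the count of MYB genes was also 0. It was 0 at the same unadjusted threshold with DESeq2 and with limma-voom. At an adjusted p below 0.05, DESeq2 called 72 of all loci higher and 59 lower, and limma-voom 1 higher and 20 lower. Of these tools only DESeq2 thus changed the balance of directions.

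For MYB021 the log2 fold change of lines over wild type was 0.10 ± 0.08 (SE; edgeR adjusted p = 0.665). Its 95% interval ran from 0.949-fold to 1.2-fold. For MYB002 the log2 fold change was 0.08 ± 0.10 (SE; edgeR adjusted p = 0.785), with an interval from 0.910-fold to 1.24-fold. The intervals of both genes thus held only modest differences in either direction. For MYB003 the log2 fold change was -0.12 ± 0.21 (SE; edgeR adjusted p = 0.860), with an interval from 0.674-fold to 1.26-fold. For MYB020 it was -0.14 ± 0.21 (SE; edgeR adjusted p = 0.828), with an interval from 0.667-fold to 1.23-fold. A fall of either gene to 0.5 of the wild-type level lay outside these intervals. The direction of MYB003 rests on 1 tree: without wild-type tree 1 its log2 fold change was 0.01, and without wild-type tree 3 it was -0.27.

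**Figure D2:**
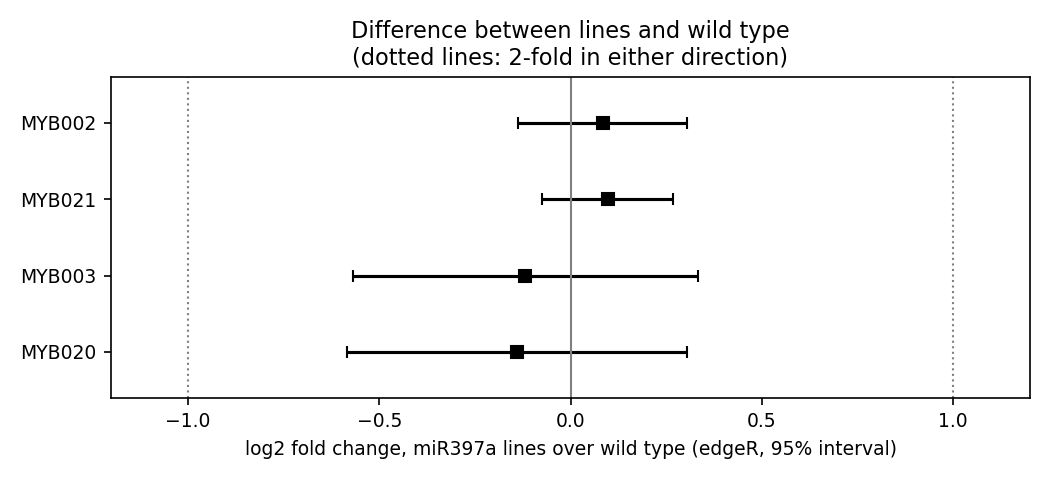
Log2 fold change of the lines over wild type for each MYB gene (squares) with its 95% interval from the edgeR fit. Dotted lines mark a 2-fold difference. All 4 intervals include 0, and the widest, of MYB003 and MYB020, reach from 0.674-fold and 0.667-fold to 1.26-fold and 1.23-fold.

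Summed over the 4 genes, the lines had 67.3 ± 4.61 CPM (SD, n = 9) against 64.5 ± 3.70 CPM (SD, n = 3) for wild type. The lines spanned 60.6 to 73.8 CPM and the wild-type trees 62.1 to 68.7 CPM, so that wild type lay wholly inside the range of the lines. The difference of the log2 sums was within the spread (0.06; exact permutation test over 220 splits, two-sided, p = 0.359, where 0.00455 is the smallest p possible). MYB021 supplied most of these reads, so the sum largely follows it.

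The balance between close relatives did not differ detectably between lines and wild type. In a ratio of reads within a library, the scaling of libraries cancels. MYB002 had 0.206 ± 0.020 reads per read of MYB021 in the lines (SD, n = 9) and 0.208 ± 0.021 in wild type (SD, n = 3), a log2 difference of -0.01 (exact permutation test, two-sided, p = 0.909; 0.914 adjusted over the 2 ratios). MYB003 had 2.46 ± 0.74 reads per read of MYB020 in the lines (SD, n = 9) and 2.32 ± 0.26 in wild type (SD, n = 3), a log2 difference of 0.04 (exact permutation test, two-sided, p = 0.914; 0.914 adjusted). The sign of both differences turned when single trees were left out.

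Among the lines the ratio of the first pair spanned less than that of the second. The ratio of MYB002 to MYB021 lay between 0.179 (line 6) and 0.238 (line 17), a 1.33-fold span. The ratio of MYB003 to MYB020 lay between 1.63 (line 30) and 4 (line 5), a 2.45-fold span. The high end rests on the 19 MYB020 reads of line 5, and the difference between the spans was not tested.

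**Figure D3:**
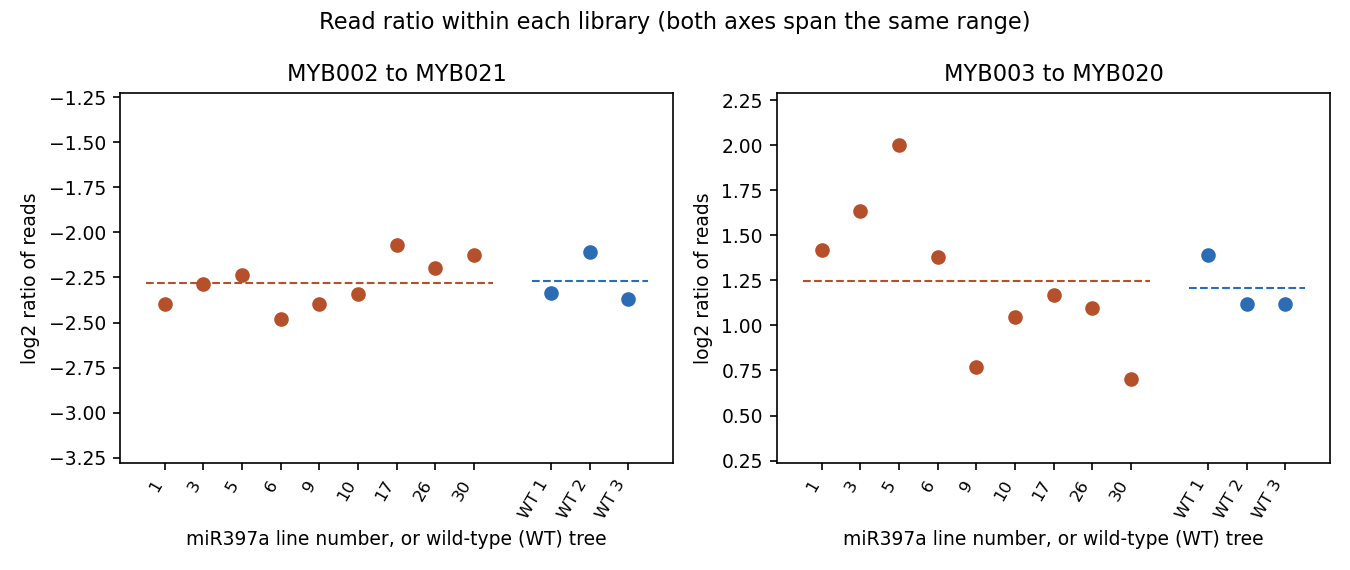
Log2 ratio of reads within each library for MYB002 to MYB021 (left) and MYB003 to MYB020 (right), with lines in red, wild-type trees in blue and dashed group means. Both vertical axes span the same range. The left ratio spans 1.33-fold among the lines and the right 2.45-fold, while the group means lie close together in both.

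On the TMM scale MYB002 and MYB021 varied less from tree to tree than MYB003 and MYB020, a difference that was not tested. Between the lines the coefficient of variation was 9.78% for MYB002 and 7.33% for MYB021. It was 25% for MYB003 and 23.0% for MYB020. Counting reads would alone give 7.83%, 3.55%, 9.61% and 15.2% in the same order. The spread of MYB003 was thus well above counting error, as was that of MYB021. That of MYB020 was moderately above it, and that of MYB002 only slightly. With library totals in place of TMM all 4 coefficients were higher (14%, 10.3%, 32.9% and 32.3%), in the same order of genes. In wild type they were 5.01% for MYB002, 6.25% for MYB021, 22.0% for MYB003 and 16.3% for MYB020 on the TMM scale (n = 3). With library totals the wild-type values were 20.1%, 9.93%, 26.3% and 28.8%, so that MYB002 was steady in wild type on the TMM scale only.

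The fit over all loci also gave a biological coefficient of variation, which models the spread beyond counting. Here edgeR draws each gene's value toward the trend over all loci, so it is not the observed spread of that gene alone. The value was 0.099 for MYB002 and 0.094 for MYB021. It was 0.212 for MYB003 and 0.193 for MYB020, beside a median of 0.148 over all tested loci. Set among the loci within 0.5 of its own log2 CPM, MYB002 stood at percentile 13.9 of this measure (4587 loci) and MYB021 at percentile 22.4 (2823 loci). MYB003 stood at percentile 84.5 (4131 loci) and MYB020 at percentile 51.5 (3174 loci). On this scale MYB003 was thus a variable gene for its read level, and MYB002, with a similar number of reads, was a steady one. These percentiles are a description, with no test.

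**Figure D4:**
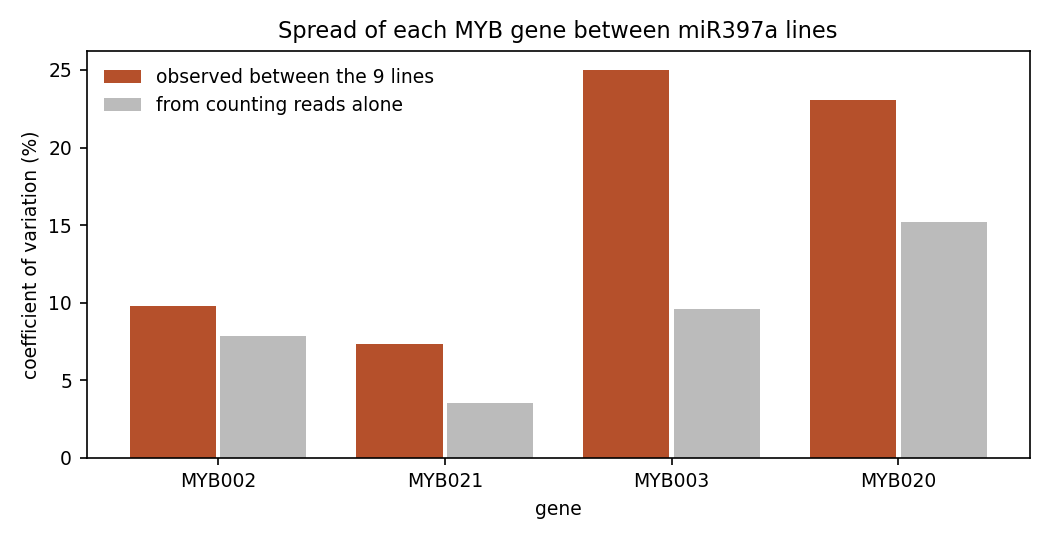
Coefficient of variation between the 9 lines for each MYB gene (red) beside the value that counting reads alone would give (grey). MYB003 stands at 25% against 9.61% from counting, and MYB002 at 9.78% against 7.83%.

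No pair of the 4 genes passed a test of correlation across the lines. The highest of the 6 correlations of log2 CPM over the 9 lines was that of MYB002 with MYB021 (Pearson r = 0.44 with an exact permutation p = 0.239, and Spearman rho = 0.53 with p = 0.148; adjusted over 6 relations, 0.701 and 0.873). Leaving out lines 26 and 6, whose MYB002 lay farthest from its median, gave r = 0.19. The other close pair, MYB003 with MYB020, had r = 0.31 (exact permutation p = 0.401; rho = 0.37, exact permutation p = 0.336; 0.701 and 0.873 adjusted) and r = 0.48 without lines 1 and 5. The remaining 4 pairs had r from -0.30 (MYB021 with MYB020) to 0.28 (MYB002 with MYB003), with adjusted exact permutation p from 0.701 to 0.797. The scaling mattered here: with library totals all 6 pairs had r from 0.63 to 0.89. MYB002 with MYB021 had r = 0.74, MYB002 with MYB003 r = 0.81 and MYB021 with MYB003 r = 0.89 (adjusted exact permutation p = 0.0465, 0.0273 and 0.00372), and the other 3 pairs had adjusted p from 0.0600 to 0.0733. Over their alternatives the first 3 adjusted p reached up to 0.711, 0.711 and 0.808. Library totals include the chromosome 5 reads, whose share differed widely between lines, and the TMM scaling itself moved with that share. Which scaling is right was not tested.

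By rank among 26297 other tested loci, the MYB genes were not close companions across the lines on the TMM scale. Ranks were not computed with library totals, where the pairs had r from 0.63 to 0.89. In the list of MYB002, ordered by r, MYB021 came at rank 2483, and in the list of MYB021, MYB002 came at rank 6900. MYB020 came at rank 6545 for MYB003, and MYB003 at rank 6802 for MYB020. A broad set of loci moved like MYB021, with r of at least 0.8 at 1514 loci (5.76%). For MYB002, MYB003 and MYB020 the number was 66, 178 and 116.

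The loci most like each gene on the TMM scale are given by identifier, since their functions were not annotated in the sources used here. Closest to MYB021 were Potri.004G218300 (r = 0.98), Potri.005G245800 (r = 0.97) and Potri.006G132500 (r = 0.97). Closest to MYB002 were Potri.001G132000 (r = 0.95), Potri.001G266400 (r = 0.94), which lies between MYB002 and MYB003 on chromosome 1, and Potri.002G092600 (r = 0.93). Closest to MYB003 were Potri.012G043100, Potri.019G047000 and Potri.010G186900 (each r = 0.93). Closest to MYB020 were Potri.001G454300 (r = 0.94), Potri.010G141800 (r = 0.94) and Potri.012G020800 (r = 0.93). These values are the top of a search over all loci with 9 lines, and high ones arise in such a search without any link. Over all 12 trees the same 12 values ran from 0.38 to 0.88. None of the 12 loci was called between lines and wild type (edgeR adjusted p from 0.414 to 0.9997).

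None of the tested loci directly beside each MYB gene was called between the groups either. The 8 neighbours had log2 fold changes from -0.21 (Potri.009G061400, before MYB020) to 0.08 (Potri.001G267200, before MYB003), with edgeR adjusted p from 0.489 to 0.930. Across the lines, on the TMM scale, the neighbour after MYB003, Potri.001G267400, had the highest correlation with its MYB gene (r = 0.65). The other 7 ran from -0.33 to 0.51.

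On the TMM scale MYB021 stood higher in lines with a larger share of reads on the chromosome 5 stretch, and with library totals it stood lower. The relation was looked at after the values were seen. On the TMM scale the 2 lines with the smallest shares, 17 and 30 (1.14% and 1.27%), had the lowest MYB021, 43.5 and 42.5 CPM, and lines 3 and 26 (13% and 18.7%) had the highest, 52.9 and 51.9 CPM. The correlation with the log2 share was r = 0.88 (exact permutation p = 0.00247; rho = 0.83, exact permutation p = 0.00827; 0.00987 and 0.0331 adjusted over 4 relations, n = 9), and 0.91 without lines 10 and 26 (exact permutation p = 0.00794). With library totals the direction turned, to r = -0.72 (exact permutation p = 0.0544 adjusted over 4, and 0.00744 to 0.0544 over all alternatives). Library totals include the stretch's own reads, and the TMM scaling itself moved with the share. It took MYB021 from 52.2 to 43.5 CPM in line 17 and from 41.3 to 51.9 CPM in line 26. Which scaling is right was not tested. About 9.99% of all tested loci had as large an r in either direction on the TMM scale. On the TMM scale the wild-type trees had the same order, with 47.4, 45.3 and 41.9 CPM at shares of 18.9%, 16.0% and 2.80%. With library totals the order of these trees was reversed, with 39.9, 41.4 and 48.0 CPM at the same shares. For MYB002, MYB003 and MYB020 r was 0.25, -0.28 and -0.32 (exact permutation p = 0.519, 0.448 and 0.384; 0.519 adjusted for each).

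**Figure D5:**
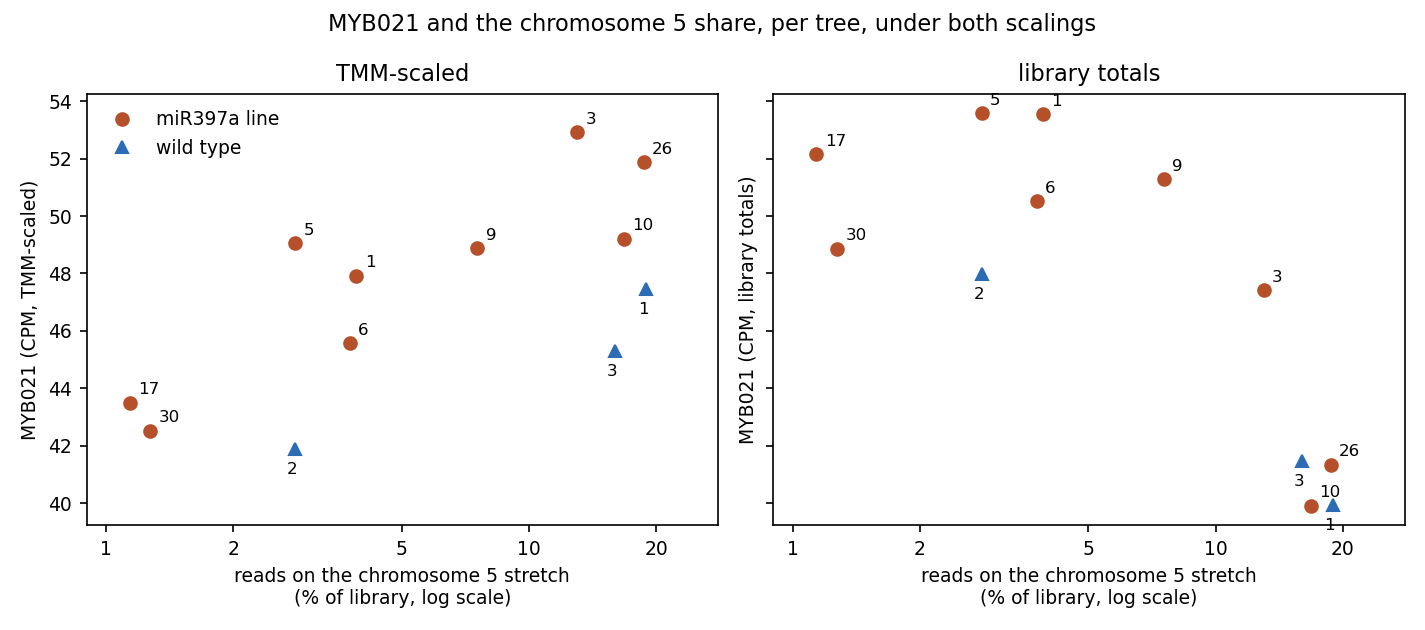
MYB021 in CPM against the share of reads on the chromosome 5 stretch (log axis) for the 9 lines (red circles) and the 3 wild-type trees (blue triangles), labelled by number. TMM-scaled values (left) rise with the share (r = 0.88 over the lines), and values scaled by library totals (right) fall with it (r = -0.72).

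With this share as a covariate, the log2 fold change of MYB021 between lines and wild type was 0.15 ± 0.06 (SE), with an unadjusted p = 0.0221 and an edgeR adjusted p = 0.152 (0.152 to 0.989 over all alternatives). The slope of MYB021 on the share was 0.06 on the log2 scale per doubling of the share (edgeR adjusted p = 0.0228). This covariate fit used the TMM scaling and was not run with library totals. With library totals the correlation of MYB021 with the share over the lines was negative (r = -0.72), so the sign of the slope depends on the scaling. In the same fit 5887 of the tested loci were called for the share (22.4%), and of the MYB genes it was 1 of 4, a share near the background. MYB002, MYB003 and MYB020 had adjusted p of 0.779, 0.527 and 0.345 for this slope in edgeR. Their log2 fold changes between lines and wild type with the covariate were 0.09, -0.17 and -0.20, and none was called.

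Potri.011G041300 had the largest fitted rise in the lines of all tested loci, where its reads numbered 6446 against 2 over the wild-type trees. It ran from 23.4 CPM (line 1) over a median of 34.3 CPM to 81.7 CPM (line 10). Its correlation with MYB020 over the lines was r = -0.76 (exact permutation p = 0.0141; rho = -0.68, exact permutation p = 0.0503; 0.0562 and 0.194 adjusted over 4 relations, n = 9), which did not pass after adjustment. It was -0.70 without lines 10 and 6 (exact permutation p = 0.0907). As large an r in either direction was found at 4.41% of all tested loci. MYB003 had r = -0.63 (exact permutation p = 0.0687; 0.137 adjusted), which fell to -0.10 without lines 10 and 6 and so rests on them. MYB002 and MYB021 had r = -0.29 and 0.23 (exact permutation p = 0.451 and 0.563; 0.563 adjusted for each), and MYB002 turned to 0.32 without lines 10 and 6. With library totals r was -0.56 for MYB020, -0.45 for MYB003, -0.48 for MYB002 and -0.19 for MYB021 (exact permutation p from 0.306 to 0.649 adjusted over 4). Against sequencing depth, the 4 genes had r from -0.37 (MYB003) to 0.34 (MYB021) with adjusted exact permutation p = 0.676 for each.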

How the data were processed

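The authors deposited 1 table of raw read counts whose 73013 rows are transcript models of 41335 loci and whose columns are the 12 trees. Per the labels' protocols, RNA was extracted by CTAB and sequencing libraries with the TruSeq RNA v2 kit of Illumina. The tools named in the submitters' processing notes are bedtools 2.14.2, TopHat2 2.0.3, Bowtie and TopHat; build, annotation, strand and the handling of multiply aligned reads: not given in the sources used here. Each locus was represented by its model with most reads. Identifiers matched 0 entries of the reference gene table (P.trichocarpa_v4.1), so only the MYB genes are named, no sequences are shown, and lists of other wall genes were not reported.

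In edgeR 4.0.16 (R 4.3.3), loci passing filterByExpr (minimum count 10) were TMM-scaled, and lines and wild type were compared by a robust quasi-likelihood test, adjusted by Benjamini-Hochberg over all tested loci at a threshold of 0.05. SEs are the log2 fold change over the square root of F, and 95% intervals use the t quantile of the fit. Correlations used log2 CPM (prior count 2). Sums and ratios were compared over the 220 splits of 9 and 3 trees, and correlations over the 362880 orders of the 9 lines. Named loci are the MYB genes, the 3 loci with the highest r to each, their direct tested neighbours and Potri.011G041300. On simulated counts for the comparison of lines and wild type (25979 loci tested) the test found 14 of 50 loci with a 1.5-fold change, 41 of 50 with a 2-fold change and all 50 with a 4-fold change. The simulated counts held no shifts with the chromosome 5 share. There the test called 160 loci, against 24 in the data, so recovery in the data may be lower. DESeq2 1.42.0 and limma-voom (limma 3.58.1), other scalings and filters, and leaving out each tree were alternatives. The MYB genes, lists and tests were chosen with earlier results of these data known. The protocols name no molecular identifiers for the reads. The Poisson intervals per tree cover counting error only, whereas the edgeR intervals also include the spread between trees.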

Additional observations from a re-analysis of the deposited data

How the results depend on the processing

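In every one of the 20 alternatives to the fit, 0 of the 4 MYB genes were called. Over these alternatives MYB002 kept a log2 fold change between 0.05 and 0.15, MYB021 between 0.05 and 0.17 and MYB020 between -0.26 and -0.04. That of MYB003 lay between -0.27 and 0.013, both ends from leaving out 1 tree, and only without wild-type tree 1 was it above 0. Leaving out 1 tree moved the log2 difference of the ratio of MYB002 to MYB021 between -0.059 and 0.069, that of MYB003 to MYB020 between -0.058 and 0.13, and that of the summed level (0.06) between 0.03 and 0.11. With library totals the summed level differed by 0.14 (exact permutation p = 0.323). The count of all called loci (24) was 131 with DESeq2 (72 higher, 59 lower), 46 with the chromosome 5 share as covariate and 16 to 65 when 1 tree was left out, the upper end without line 1. Correlations depended on the scaling: with library totals r was 0.74 for MYB002 with MYB021, 0.81 for MYB002 with MYB003, 0.89 for MYB021 with MYB003, 0.64 for MYB021 with MYB020, 0.70 for MYB002 with MYB020, 0.63 for MYB003 with MYB020, -0.19 for MYB021 with Potri.011G041300 and -0.72 for MYB021 with the chromosome 5 share. On the TMM scale this last relation (r = 0.88) was 0.84 to 0.93 when 1 line was left out. Without the 2 lines farthest from the median, r was -0.55 for MYB002 with MYB020 and 0.17 for MYB021 with MYB020. Apart from the scaling, the cause of these shifts was not tested. The chromosome 5 share, as a covariate and in its correlations, and the alternatives for Potri.011G041300 were chosen after the data were seen. No paired analysis was possible because a line's number names that transgenic line and a wild-type number only its tree. Depth limits MYB020 most, with 19 to 94 reads per library.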
